A study of Mus musculus with 24 samples.

Results

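The GABA system of the aged mouse hippocampus was described through 29 genes chosen by symbol, and all 29 were present among the 24411 genes of each deposited hippocampal table. They comprise 9 subunits of the ionotropic GABA-A receptor, 2 subunits of the metabotropic GABA-B receptor, 3 genes of GABA synthesis and vesicle loading, 2 of uptake and breakdown, 2 scaffold and adhesion genes of the inhibitory postsynapse and 11 genes that mark interneurons or their development.

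GABA is the main inhibitory transmitter of the hippocampus and is made from glutamate in local interneurons, which are few in number beside the excitatory granule and pyramidal cells. It is packed into vesicles, opens chloride-conducting GABA-A receptors on the target cell, slows release and excitability through G-protein-coupled GABA-B receptors, and is then cleared into neurons and astrocytes. The make-up of a GABA-A receptor differs between places: receptors with the α5 or δ subunit lie mostly outside the synapse and carry tonic inhibition, and interneurons themselves are divided into classes by the peptides and calcium-binding proteins they contain.

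Whole hippocampi came from aged male C57/Bl6 mice (20 months) that had received 8 intravenous injections of 100 µl over 24 days. The injections held saline (5 mice), a young blood plasma preparation (6 mice) or the young platelet fraction of such plasma (6 mice), and the blood donors were 3 months old. Microglia isolated from the hippocampus of aged mice given saline (3 libraries) or the platelet chemokine PF4 (4 libraries) were used only to see which of the genes were detected there. Each hippocampal library was labelled with its own mouse number, and the labels name no transgene or deletion in any group. The comparison asks whether components of young blood changed inhibitory transcripts of the aged hippocampus, and both treatments were set against the same 5 saline libraries.

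The 17 hippocampal libraries held 6140510 to 10522699 counted reads each. Markers of dentate granule cells and of CA pyramidal cells were detected in all of them, with summed levels of 2519 to 6488 and 7560 to 10546 normalized counts, whereas thalamus and habenula markers summed to 691 to 1293 and striatal markers to 1061 to 1836. Choroid plexus markers ranged from 1077 to 59094 normalized counts in total. In a principal component analysis of the 13800 other expressed genes, without the 29 members and the related lists, the first component carried 25.3% of the variance and 5 libraries stood apart from the other 12. These were saline mice 7146 and 7152, young plasma mice 7147 and 7150 and young platelet mouse 7148, so that every group held at least 1 of them, and differences from saline that changed sign without them are given with the value without them. In whole tissue, fewer cells of a type and less RNA per cell cannot be told apart.

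Several members are neighbours in the genome (GRCm38, the mm10 build). Gabra4 (chr5:71569749-71658308, minus strand), which encodes the α4 subunit, meets Gabrb1 (chr5:71658113-72149037, plus strand), which encodes β1, head to head, and their exons share 46 bases. A stretch of 195 bases before the Gabra4 start in RefSeq (GRCm38.p6, chr5:71658364-71658558, minus strand), which also lies inside the Gabrb1 gene, is shown because this pair gave the only member past the threshold and a neighbour that was not. The capitals mark 2 matches to the GC box, GGGCGG on either strand, a motif bound by Sp-family factors. A second, 30-base stretch from upstream of the RefSeq start of Sst (chr16:23890874-23890903, minus strand) is shown because Sst was the 1 member with a full cyclic AMP response element, TGACGTCA, in its 250-base upstream window.
Gabra4 upstream: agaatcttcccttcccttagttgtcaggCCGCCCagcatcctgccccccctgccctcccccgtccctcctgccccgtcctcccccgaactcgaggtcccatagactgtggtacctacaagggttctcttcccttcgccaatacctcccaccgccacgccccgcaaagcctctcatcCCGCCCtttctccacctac
Sst element: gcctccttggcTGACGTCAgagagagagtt

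Of the 29 members, 25 had an entry in the RefSeq promoter table. The GC box was found in 15 of the 34 upstream windows of these 25 genes (14 genes) and in 32.7% of the 32851 upstream windows of 250 bases in that table, counting both strands. The cyclic AMP response element was found in 1.55% of all windows. A match to the letters is a description and not a measured site. On chromosome 5, Gabrg1 and Gabra2 lie 115 kb apart and Gabra2 and Gabra4 lie 474 kb apart, so this stretch carries 4 receptor members. Gabrg3 and Gabra5 are separated by 20483 bases on chromosome 7, and Dlx1 and Dlx2 by 9426 bases on chromosome 2.

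Levels were compared between genes as RPKM, reads scaled to a kilobase of transcript and to library depth, over all 17 libraries. Each gene was given the length of a single annotated transcript, so the order, shares and ratios per kilobase depend on that choice. Cck, which encodes the neuropeptide cholecystokinin and is also made by pyramidal cells, was the most abundant at a median of 525, with a range of 459 to 723 that did not reach the next gene. Gad1, the larger form of the GABA-synthesising enzyme glutamate decarboxylase, followed at 134, and the interneuron peptide somatostatin (Sst) at 97.5. The GABA-degrading transaminase Abat had a median of 85.1 and Gabra5 one of 75.1, and from Gad1 down to Slc32a1 each gene overlapped the next in the order. Slc32a1, the vesicular GABA transporter that fills vesicles in the cells that contain Gad1, had a median of 1.27. Gabrg3, the γ3 subunit, was at 0.265 and did not overlap Slc32a1, and Dlx6 was lowest at 0.202.

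**Figure D1:**
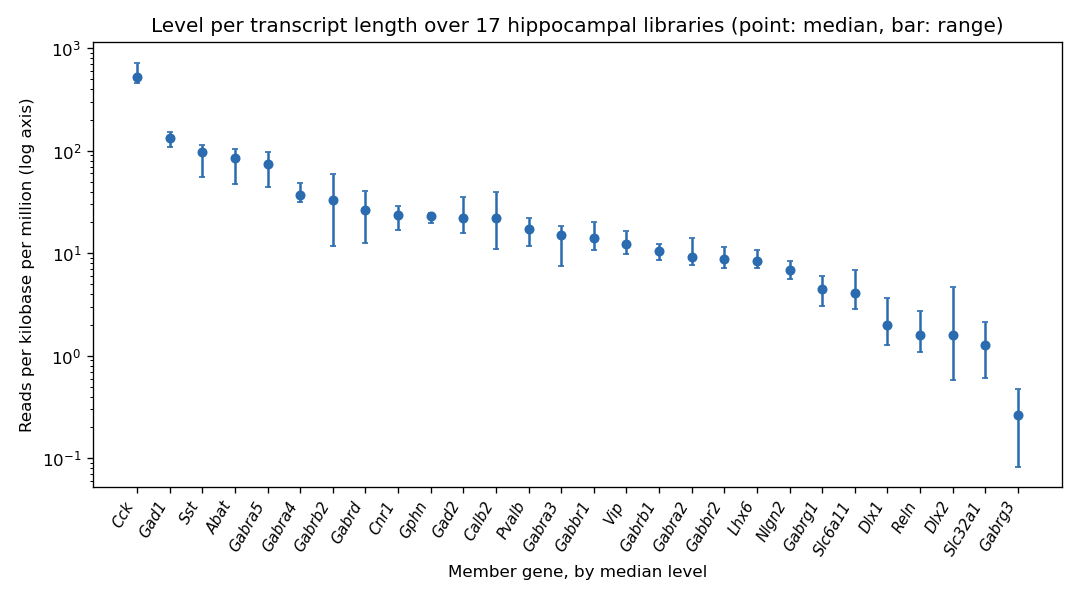
Level of each tested member per transcript length (vertical log axis, RPKM), ordered by its median over the 17 hippocampal libraries, with bars from the lowest to the highest library. Cck stands alone at a median of 525, and most neighbours in the order overlap.

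Among the 9 GABA-A subunits, Gabra5 made up the largest share of the summed level per kilobase, with a mean of 35.4% ± 6.17 (SD, n = 17). Gabra4 made up 17.9% ± 1.12, Gabrb2 15.3% ± 6.06 and Gabrd, the δ subunit, 12.7% ± 2.75 over the same libraries. The share of Gabra4 was the steadiest of these 4, and that of Gabrb2 ranged from 5.93% to 24.4%. The share of Gabra5 was 35.1% ± 5.47 in saline (n = 5), 34.4% ± 7.06 after the young blood plasma preparation (n = 6) and 36.7% ± 6.69 after the young platelet fraction (n = 6), with ranges that overlapped.

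In the comparisons between treatments, 28 of the 29 members were kept for testing, having reached 10 normalized counts in at least 5 libraries. Dlx6, a homeobox gene of interneuron development, did not, at 0 to 7.62 normalized counts. After the young blood plasma preparation, 1 of the 28 members passed an unadjusted P of 0.05 (limma), which was Gabra4 and was lower. Over all 13594 genes tested, 3.35% passed in either direction and 1.51% passed and were lower. After the young platelet fraction, 0 of 28 members passed, against 3.87% of 13603 genes. Between the treatments 0 of 28 passed, against 1.90% of 13693 genes. These shares of members are near the background and are not a result about the members. With edgeR and with DESeq2 on the recovered reads the counts were likewise 1, 0 and 0, and none of the 3 tools gave any member an adjusted p (Benjamini-Hochberg over all genes tested) under 0.05.

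The treated and reference libraries overlapped for every tested member in each comparison, where 0.191%, 0.257% and 0.0803% of all tested genes did not overlap for young plasma against saline, young platelet fraction against saline and young platelet fraction against young plasma. The 28 members had a median log2 difference of -0.03 for young plasma, beside -0.01 over all genes tested. With the young platelet fraction these medians were -0.08 and 0.00. The 95% interval lay inside a 1.5-fold change either way for 20 of 28 members after each treatment and inside a 2-fold change for 25 and 27 of them. Gabrb2, Gabrg3 and Dlx2 were the members whose interval after young plasma reached beyond 2-fold, and Dlx2 was that member after the young platelet fraction.

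**Figure D2:**
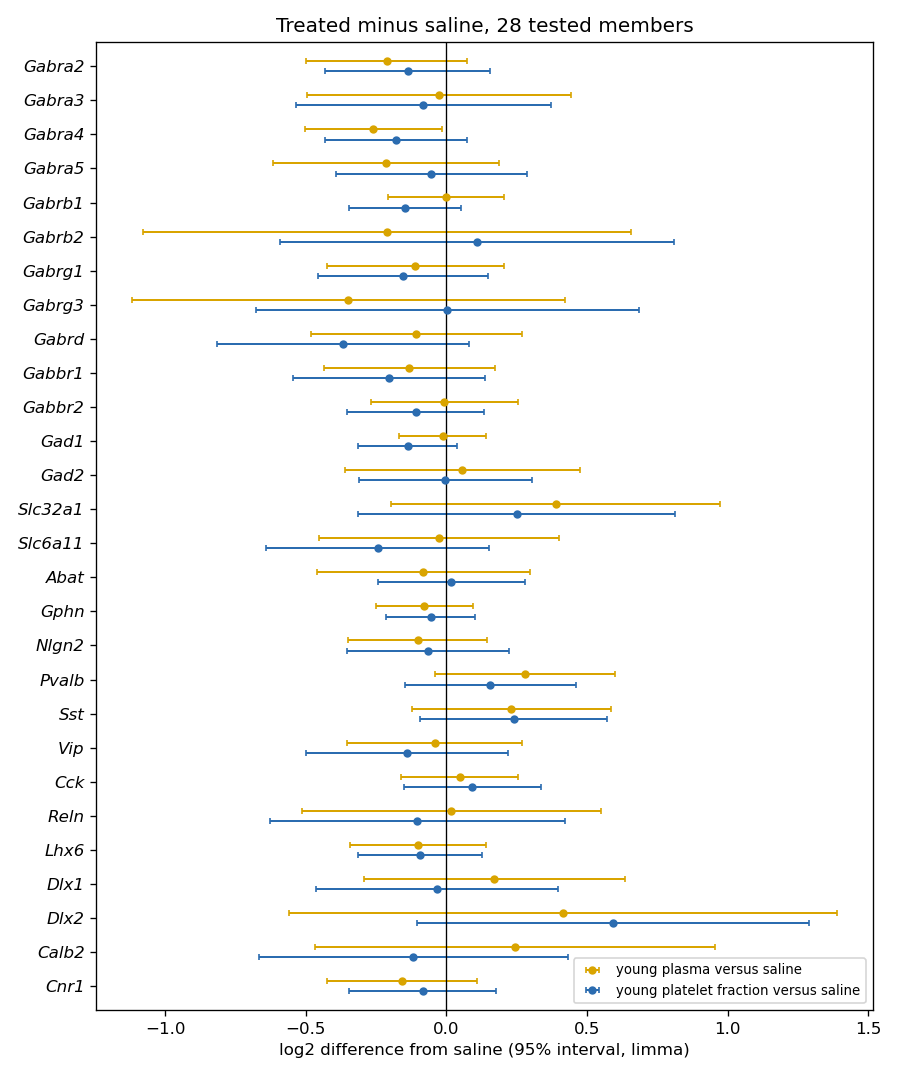
Treated minus saline differences of the 28 tested members (horizontal axis, log2, with 95% limma intervals) after young plasma (yellow) and the young platelet fraction (blue), each against the same 5 saline libraries. The interval of Gabra4 after young plasma is the one that does not reach 0.

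Gabra4, a subunit typical of dentate granule cells and thalamus that pairs with δ outside the synapse, was at 967, 1395, 1477, 1241 and 1118 normalized counts in saline mice 7143, 7146, 7152, 7155 and 7596. After young plasma it ranged from 935 to 1135 with a median of 1019, and after the young platelet fraction from 964 to 1354 with a median of 1039. All 6 young plasma libraries lay below the saline median, although the lowest saline library lay within their range. The log2 difference after young plasma was -0.26 ± 0.11 (SE; limma P = 0.0377, two-sided exact permutation P = 0.0476), a fold of 0.835 with a 95% interval of 0.706 to 0.988. The adjusted p was 1.00 (limma, Benjamini-Hochberg). After the young platelet fraction the difference was -0.18 ± 0.12 (limma P = 0.149, exact permutation P = 0.175), and that between the treatments was 0.08 with a 95% interval of -0.12 to 0.27 (limma P = 0.407, exact permutation P = 0.411), so the treatments were not shown to differ.

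The call on Gabra4 depended on which libraries were included. The 2 highest saline values came from mice 7146 and 7152, both among the 5 that stood apart. Without these 5 libraries the difference after young plasma was -0.12 and no longer passed, and that after the young platelet fraction was -0.01. Leaving out saline mouse 7146, 7152 or 7155, or young plasma mouse 7144, 7147 or 7156, each raised the limma P above the threshold, to between 0.0635 and 0.109. After the young platelet fraction Gabra4 passed the limma threshold without saline mouse 7143 (-0.26) and without young platelet mouse 7145 (-0.24). Over all 13603 genes, 369 rose and 229 fell past it without mouse 7143, where the adjusted p of Gabra4 was 0.938 (limma, Benjamini-Hochberg). Passes without a single library given below are likewise unadjusted, and 14 of 1783 repeats over single members gained a call.

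Markers of dentate granule cells moved in the same direction as Gabra4. Of 10 such markers, 4 fell after young plasma (Prox1, Neurod1, Trpc6 and Tdo2) and 3 after the young platelet fraction (Neurod1, Trpc6 and Tdo2) at an unadjusted limma P of 0.05, with median log2 differences of the list of -0.45 and -0.28. Over all genes tested, 3.35% and 3.87% passed in either direction after these treatments. The marker lists were chosen with earlier results of these data known, so all counts from them here are a description and not independent support. The summed level of the granule cell markers was 3307 to 6488 in saline, 2519 to 4972 after young plasma and 2925 to 4439 after the young platelet fraction, and none of the 10 was at 0. Without the 5 libraries, 2 of 10 fell after either treatment, with medians of -0.29 and -0.30. Over all genes tested without them, 174 rose and 137 fell of 13594 after young plasma, and 246 rose and 170 fell of 13603 after the young platelet fraction. All 10 oligodendrocyte markers rose after each treatment, with medians of 0.51 and 0.63, and summed to 40492 to 78746, 52264 to 115997 and 64454 to 102480 normalized counts in saline, young plasma and young platelet fraction, and 2 and 6 of 10 rose without the 5 libraries. Of 9 ependymal markers 2 rose after each treatment, and no more than 1 marker passed in any list for CA pyramidal cells, astrocytes, microglia, endothelium, choroid plexus, thalamus, striatum or red cells. Without the 5 libraries, 2 of 8 microglia markers fell after the young platelet fraction. The part of these shifts in the Gabra4 values was not tested.

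Gabrb1, which shares exon bases with Gabra4, was at 1070 ± 127 normalized counts in saline (SD, n = 5), 1067 ± 99.1 after young plasma (n = 6) and 963 ± 75.0 after the young platelet fraction (n = 6). Its difference after young plasma was 0.00 (95% interval -0.21 to 0.21), while after the young platelet fraction it was -0.15 (limma P = 0.138, exact permutation P = 0.134), with all 6 libraries below the saline median. It passed the limma threshold at -0.22 without saline mouse 7155. The ratio of Gabra4 to Gabrb1 per kilobase was 3.09 to 4.78 in saline, 2.82 to 3.66 after young plasma and 3.22 to 5.32 after the young platelet fraction. This ratio rests on the transcript length taken for each gene, 4108 bases for Gabra4 and 13737 for Gabrb1. Before scaling to length, their saline means were 1239 and 1070 normalized counts. Reads over the 46 shared bases can be assigned to either gene unless strand was used in counting.

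Gabrd, which forms extrasynaptic receptors of granule cells with Gabra4, was at 348, 379, 581, 397 and 338 normalized counts in saline mice 7143, 7146, 7152, 7155 and 7596. It ranged from 285 to 487 (median 395) after young plasma and from 174 to 420 (median 334) after the young platelet fraction. Mouse 7152 lay well above the other 4 saline libraries, and the groups overlapped. The difference was -0.11 (exact permutation P = 0.597) after young plasma and -0.37 ± 0.21 (limma P = 0.100, exact permutation P = 0.167) after the young platelet fraction, a fold of 0.775 with a 95% interval of 0.568 to 1.06. Without the 5 libraries that stood apart, among them mouse 7152, these were 0.04 and -0.26, and without young platelet mouse 7151 the second was -0.46 and passed the limma threshold.

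Gabra5, the subunit of tonic inhibition in pyramidal cells, was at 1021, 1845, 1917, 1407 and 1459 normalized counts in the saline mice in the same order. It ranged from 832 to 1610 (median 1372) after young plasma and from 1133 to 1757 (median 1452) after the young platelet fraction. Mice 7146 and 7152 were the highest of all 17, and both differences, -0.22 and -0.05, had intervals that included 0. Both mice were among the 5 libraries that stood apart, without which the differences were -0.13 and 0.11. Gabra2, a synaptic subunit, was at 456, 584, 409, 374 and 435 in saline, at 324 to 508 (median 376) after young plasma and at 348 to 518 (median 373) after the young platelet fraction. Only 1 young plasma library exceeded the saline median, and the differences were -0.21 (limma P = 0.134, exact permutation P = 0.167) and -0.14 (limma P = 0.331, exact permutation P = 0.366). Without young plasma mouse 7147 the first of these was -0.29 and passed the limma threshold.

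Gabrb2, which encodes the β2 subunit of many synaptic receptors, had the widest spread of the abundant members, with means of 925 ± 381, 840 ± 405 and 990 ± 413 (SD, n = 5, 6 and 6) in saline, young plasma and young platelet fraction. Its differences of -0.21 and 0.11 had 95% intervals of -1.08 to 0.66 and -0.59 to 0.81. Without the 5 libraries that stood apart they were -0.14 and -0.17, and the contrast between the treatments went from 0.32 to -0.03. Gabra3 was at 384 ± 108, 369 ± 75.5 and 354 ± 71.7 in the 3 groups, Gabrg1 at 163 ± 16.5, 153 ± 29.7 and 148 ± 31.3, and Gabrg3 at 5.88 to 32.8 over all libraries. None of these passed the threshold. Of the 9 subunits, 9 had a difference below 0 after young plasma, 1 of them past the test, and 7 had one with the young platelet fraction, 0 of them past the limma test. With scaling to library totals the first count was 8, and without the 5 libraries that stood apart it was 6. The second count was 8 without the 5 libraries and 8 with TMM scaling. Over all genes tested, 6432 of 13594 had a difference above 0 after young plasma and 6873 of 13603 with the young platelet fraction. Both counts used the same 5 saline libraries, and Gabrb1, counted below 0 after young plasma, was at -0.001.

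The GABA-B subunits did not pass the test in any comparison. Gabbr1, the ligand-binding subunit, was at 451, 637, 786, 526 and 462 normalized counts in saline mice 7143, 7146, 7152, 7155 and 7596, at 442 to 576 (median 527) after young plasma and at 403 to 621 (median 467) after the young platelet fraction. The 2 highest saline libraries were again mice 7146 and 7152. Its differences were -0.13 and -0.20 (exact permutation P = 0.435 and 0.284), and without the 5 libraries they were 0.02 and -0.05. Gabbr2, the G-protein-coupling partner, was at 386 ± 60.7, 383 ± 49.6 and 356 ± 34.4 in the 3 groups (SD, n = 5, 6 and 6).

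Of the enzymes that make GABA, Gad1 was at 3118, 3318, 3456, 3189 and 3380 normalized counts in the saline mice in the same order. It ranged from 2910 to 3594 (median 3284) after young plasma and from 2631 to 3462 (median 2976) after the young platelet fraction. The saline libraries lay close together, and 5 of 6 young platelet libraries lay below their median. The difference was -0.01 with a 95% interval of -0.17 to 0.14 after young plasma, and -0.14 with an interval of -0.31 to 0.04 (limma P = 0.115, exact permutation P = 0.123) after the young platelet fraction. As a fold the latter interval ran from 0.804 to 1.03. Without young platelet mouse 7145, the highest of its group, it was -0.18 and passed the limma threshold.

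Gad2, the smaller decarboxylase, which is concentrated at terminals, was at 1038, 766, 752, 890 and 1209 in saline, at 656 to 1455 (median 1016) after young plasma and at 725 to 1203 (median 924) after the young platelet fraction. The groups overlapped almost fully, and the differences were 0.06 and 0.00. Slc32a1 was at 19.1, 29.2, 23.4, 12.0 and 34.4 in saline, at 22.9 to 42.4 (median 28.3) after young plasma and at 20.4 to 34.3 (median 26.4) after the young platelet fraction. Each treatment had 5 of 6 libraries above the saline median, yet the differences of 0.39 and 0.25 had 95% intervals of -0.20 to 0.97 and -0.31 to 0.81, and at this level counting alone gives a spread of about 19.2% in a library.

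**Figure D3:**
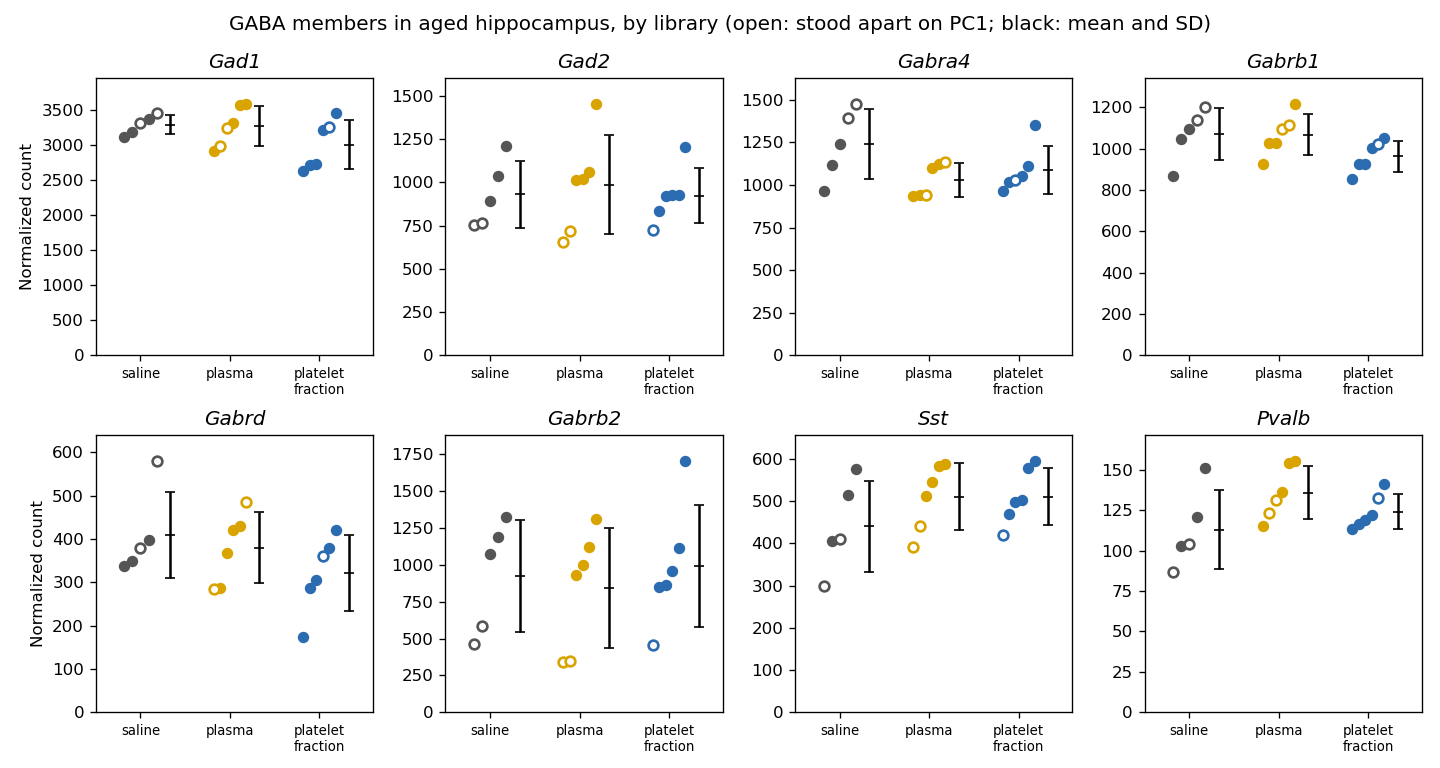
Normalized counts (vertical axes, from 0) of 8 members in each hippocampal library of the saline, young plasma and young platelet fraction groups, with open points for the 5 libraries that stood apart and black marks for the group mean and SD. Gad1 is tight in saline (3118 to 3456), Gabra4 is highest in open saline points, and Gabrb2 and Gad2 are lowest in open points of every group.

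Among the genes that clear GABA, Slc6a11, the astrocytic transporter GAT-3, was at 140 ± 32.0, 139 ± 37.4 and 118 ± 25.1 normalized counts in saline, young plasma and young platelet fraction (SD, n = 5, 6 and 6), with differences of -0.03 and -0.24. Abat was at 2791 ± 432, 2690 ± 660 and 2820 ± 420. At the postsynapse, Gphn, which encodes the receptor-clustering scaffold gephyrin, was the steadiest member, at 556 ± 37.7, 527 ± 36.8 and 533 ± 18.5, a coefficient of variation of 6.00% over the 17 libraries against 4.31% from counting alone. Its 95% interval was -0.25 to 0.09 after young plasma and -0.21 to 0.10 after the young platelet fraction. Nlgn2, the adhesion protein of inhibitory synapses, was at 287 ± 44.1, 266 ± 23.5 and 274 ± 44.8. None of these 4 passed the test.

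The interneuron class markers gave no call after either treatment. Sst was at 577, 409, 298, 406 and 514 normalized counts in saline mice 7143, 7146, 7152, 7155 and 7596, at 392 to 587 (median 529) after young plasma and at 419 to 596 (median 501) after the young platelet fraction. All 6 young platelet libraries and 5 of 6 young plasma libraries lay above the saline median, and the groups overlapped. The differences were 0.23 ± 0.16 (limma P = 0.182, exact permutation P = 0.240) and 0.24 ± 0.15 (limma P = 0.143, exact permutation P = 0.175), and 0.17 and 0.09 without the 5 libraries that stood apart. Without saline mouse 7143 that after the young platelet fraction was 0.34 and passed the unadjusted limma threshold. In that fit 369 genes rose and 229 fell past this threshold of 13603 tested, and 0 passed after adjustment.

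Pvalb, the calcium-binding protein of fast-spiking basket cells, was at 151, 104, 86.5, 103 and 121 in saline, at 115 to 156 (median 134) after young plasma and at 114 to 141 (median 120) after the young platelet fraction. All 12 treated libraries lay above the saline median, and the 2 highest saline mice, 7143 and 7596, lay among them. The differences were 0.28 ± 0.15 (limma P = 0.0812, exact permutation P = 0.0887) and 0.16 ± 0.14 (limma P = 0.287, exact permutation P = 0.264). Without mouse 7143 that after young plasma was 0.39 and passed the limma threshold, and without the 5 libraries that stood apart it was 0.17 and did not. With all 3 groups in 1 fit the difference after young plasma was 0.28 and passed the limma threshold.

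Vip, the peptide of interneurons that inhibit other interneurons, was at 125, 182, 116, 134 and 171 in saline, at 111 to 157 (median 144) after young plasma and at 109 to 179 (median 123) after the young platelet fraction, with no separation. Cck was at 3054, 2578, 2683, 2993 and 3517 in saline, at 2669 to 3515 (median 3035) after young plasma and at 2771 to 4089 (median 2956) after the young platelet fraction, and its 95% intervals were -0.16 to 0.25 and -0.15 to 0.34. Calb2, which encodes calretinin, varied more, at 224 ± 83.4, 275 ± 118 and 202 ± 54.3 (SD, n = 5, 6 and 6).

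Reln, the secreted glycoprotein of a set of dendrite-targeting interneurons, was at 156 ± 53.4, 155 ± 44.4 and 142 ± 39.7 in the 3 groups. Cnr1, the cannabinoid receptor on terminals of cholecystokinin interneurons, was at 1135, 982, 828, 1082 and 1134 normalized counts in the saline mice, at 724 to 1155 (median 935) after young plasma and at 740 to 1189 (median 984) after the young platelet fraction. Only 1 library of each treatment exceeded the saline median, and the differences of -0.16 and -0.08 did not pass (exact permutation P = 0.260 and 0.537). Several uncalled differences not yet given both ways had the opposite sign without the 5 libraries that stood apart. After young plasma these were Gabrb1 (0.06 without them), Gabrg1 (0.05), Gad1 (0.04), Slc6a11 (0.02), Vip (0.04), Cck (-0.04) and Reln (-0.18). After the young platelet fraction they were Gabrg3 (-0.24), Abat (-0.10), Pvalb (-0.01), Cck (-0.01) and Dlx1 (0.03), and none of these passed by limma.

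Of the transcription factors that specify interneurons of the medial and caudal ganglionic eminences, Lhx6 was at 219 ± 17.4, 205 ± 29.5 and 205 ± 22.8, Dlx1 at 56.3 ± 10.1, 65.2 ± 22.2 and 55.7 ± 13.9, and Dlx2 at 24.6 ± 11.0, 36.7 ± 26.0 and 35.9 ± 10.5 normalized counts. Dlx2 had the largest difference of any member after the young platelet fraction, 0.59 ± 0.32 (limma P = 0.0902, exact permutation P = 0.121), with 5 of 6 libraries above the saline median. It was 0.86 without the 5 libraries that stood apart, 0.79 without saline mouse 7152 and 0.75 without young platelet mouse 7145, and each of these passed the limma threshold. The adjusted p was 0.998 with all libraries and 0.9996 without the 5 (limma, Benjamini-Hochberg). At this level counting alone gives a spread of about 20.1% in a saline library and 16.7% in a young platelet library. The coefficient of variation of Dlx2 in saline was 44.6%.

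Related genes were counted from lists that held none of the 29. Of 30 other GABA receptor and synapse genes, 22 were tested and 0 passed in any comparison by limma, with median differences of 0.02, 0.06 and 0.02 for young plasma, young platelet fraction and the contrast between them. Of 40 other interneuron genes, 34 were tested against saline, and 2 passed after the young platelet fraction, both lower. Over all 13603 genes tested in that comparison, 3.87% passed in either direction, so these 2 calls are near the background share. Lamp5, a marker of neurogliaform cells, was at 564 ± 39.9 in saline and fell to 468 ± 85.5 after the young platelet fraction (log2 difference -0.29, unadjusted limma P of 0.0417, adjusted p = 0.998). Adarb2, a gene of interneurons from the caudal eminence, fell from 391 ± 82.5 to 303 ± 71.8 after the young platelet fraction (log2 difference -0.38, unadjusted limma P of 0.0475, adjusted p = 0.998). Without the 5 libraries that stood apart, the log2 difference of Lamp5 after the young platelet fraction was -0.36 and passed the limma threshold, and that of Adarb2 was -0.26 and did not pass. Of 10 vesicular and glutamate neuron genes 0 passed in any comparison by limma.

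The clearest differences among the members lay between libraries and not between treatments. Gabrb2 was at 342 to 582 normalized counts in the 5 libraries that stood apart and at 849 to 1705 in the other 12, with a mean log2 difference of -1.35. Gad2 was at 656 to 766 in the 5 and at 837 to 1455 in the 12. These 2 were the members with no overlap, 2 of the 28 tested, where 7.21% of 13896 expressed genes did not overlap, so the share of members was near the background. The 5 libraries were picked out by expression, and these values are a description with no test.

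Gabrg3 (-0.77), Reln (-0.62), Sst (-0.44) and Abat (-0.43) were also lower on average in the 5 libraries on the log2 scale, and Gabra5 (0.42) and Gabbr1 (0.40) were higher, with some overlap. In all, 8 of 28 members differed by more than 0.4 either way, as did 22.3% of all expressed genes. Gad1 differed by 0.05 and Gphn by -0.02. As a result the ratio of Gad1 to Gad2 per kilobase was 7.42 to 7.86 in the 5 libraries and 4.20 to 6.14 in the 12, although the ranges of the 3 treatment groups overlapped widely, at 4.79 to 7.86 in saline, 4.20 to 7.81 after young plasma and 4.87 to 7.70 after the young platelet fraction. Over all expressed genes with a known length, the difference between the 5 and the 12 libraries had a median of 0.00 for the sixth with the shortest coding transcripts, 0.10, 0.11 and 0.05 for the next sixths, -0.13 for the fifth and -0.30 for the longest (5707 bases or more). Of the members in that longest sixth, Gabrg3, Reln, Gad2, Cnr1 (-0.35) and Gabbr2 (-0.07) were lower in the 5 libraries and Gabra2 (0.24) and Gabrb1 (0.17) were higher. Sst belongs to the shortest sixth and Gabrb2 and Gad1 to the fourth. The summed choroid plexus markers ranged from 1077 to 47537 in the 5 (median 2324) and from 5696 to 59094 in the 12 (median 22044), which overlapped. The part of transcript length and of choroid tissue in the members' values was not tested.

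**Figure D4:**
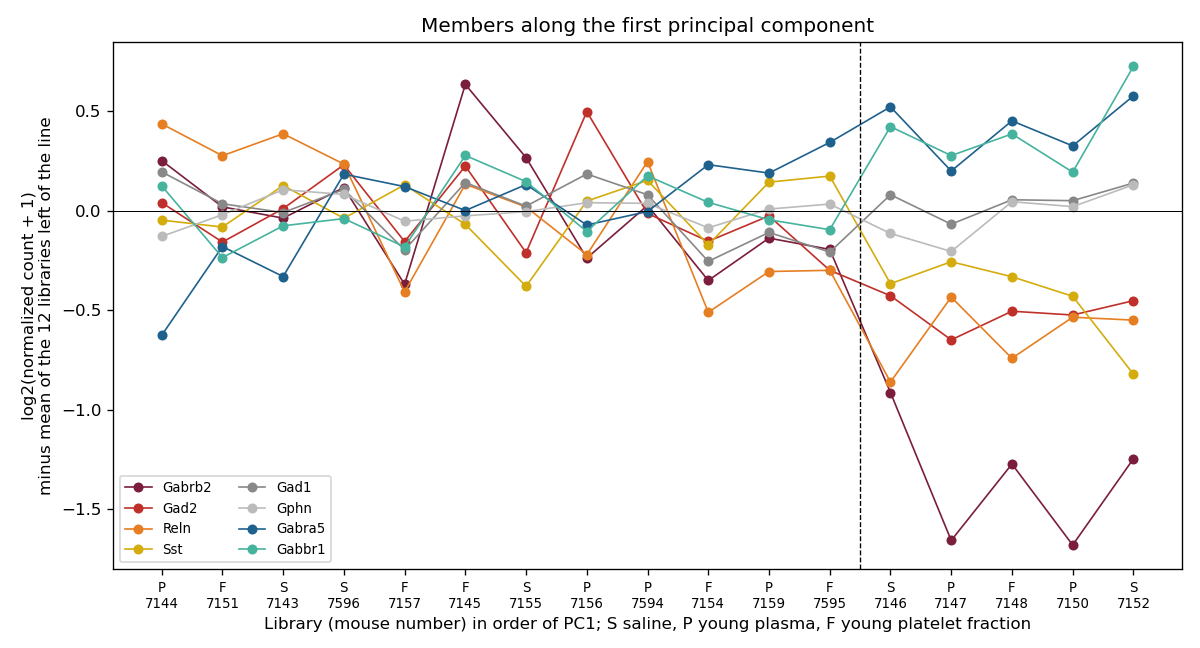
Log2 level of 8 members (vertical axis, difference from the mean of the 12 libraries left of the dashed line) with the 17 libraries in order of the first principal component (horizontal axis, group letter and mouse number). Gabrb2 and Gad2 are lower in each of the 5 libraries right of the line, Gabra5 and Gabbr1 are above 0 there, and Gad1 and Gphn stay near 0.

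8 pairs of members known from the same cells or locus were compared across mice after subtracting group means, and because the 5 libraries formed a cluster of their own the correlations were taken within the other 12. Gad1 and Gad2 had Pearson's r = 0.63 (permutation P = 0.0370, adjusted over the 8 pairs 0.296) and Spearman's rho = 0.43 (permutation P = 0.177, adjusted 0.708), and r was 0.43 without the 2 libraries farthest from the median of Gad1. Gabra4 and Gabrd had r = 0.48 (permutation P = 0.189, adjusted 0.757) and rho = 0.45 (permutation P = 0.163, adjusted 0.708), and r was 0.34 without the 2 farthest. The other 6 pairs had r between -0.30 and 0.32. None of the 8 passed after adjustment. The comparison had been planned over all 17 libraries, where none passed after adjustment either, and the smallest adjusted P there was that of Gabra4 and Gabrd (0.199 for Pearson, 0.0950 for Spearman, by permutation).

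In the isolated microglia most members had few or no reads. Of the 29 members, 10 had no read in any of the 7 libraries, among them Slc32a1, Pvalb, Lhx6, Gabra5 and Cnr1, where the 3 reads that a count of 0 allows would amount to 0.0825 to 0.151 RPM, reads scaled to library depth. For 21 members the median was 0, and for all 29 the highest microglia library lay below the lowest saline hippocampus in RPM. Abat and Gphn were the members read in all 7. Abat was at 18.3, 17.8 and 3.44 RPM in the saline microglia and at 56.8, 46.7, 0.0325 and 28.8 in the PF4 microglia, against 299 to 447 in saline hippocampus. Gphn, which also serves in molybdenum cofactor synthesis in many cell types, was at 9.72, 25.2 and 8.14 in saline and at 0.0948, 66.7, 12.8 and 11.0 in PF4 microglia, against 69.7 to 80.6 in hippocampus. Of the others, 9 were read in 2 to 6 libraries, such as Gabbr1 and Cck in 6, and 8 in 1 library, such as Gad1, at 7.56 in 1 PF4 library and 0 in the other 6. The microglia and hippocampal tables were processed separately, so these levels carry no test.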

How the data were processed

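Each hippocampal library was 1 mouse, and groups were taken from the labels. STAR, RSEM and DESeq2 were the authors' tools for alignment to mm10, counting and normalization. The values deposited per gene are a signal, a read count over a library size factor. The study's methods describe a modified Smart-Seq2 protocol and the labels a strand-specific poly(A) kit, so whether counting used strand is not settled. Columns with the authors' own fold changes and p-values were not used. Values were whole multiples of 1 read (tolerance 0.01), so reads were recovered, and the saline reads were identical in both hippocampal tables. The libraries held 6140510 to 10522699 (hippocampus) and 19855188 to 36342162 (microglia) reads without molecular identifiers, and intervals from counts cover counting error only.

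Levels are on a joint median-of-ratios scale over the 17 hippocampal libraries, within 2.69% of the deposited scale. Log2(normalized count + 1) was fitted for the 2 groups of a comparison across all genes at 10 or more in at least 5 libraries in limma 3.58.1 (R 4.3.3, variance trend), at the study's unadjusted P of 0.05 and with Benjamini-Hochberg adjusted p. A log2 difference on this scale understates changes of low genes. The scripts were tested on simulated data. Alternatives used other pseudocounts, filters and scalings, edgeR 4.0.16, DESeq2 1.42.0, all groups together, and fewer libraries. Correlations used 100000 permutations within groups. Sequences and coordinates came from RefSeq (GRCm38.p6) and GENCODE M21. Paralogs and overlapping genes can share reads.

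The members, the related gene lists and the marker lists were chosen with earlier results of these data known. Values by library in saline, and the lowest, median and highest in the treated groups, are given for each member past P 0.05 in a comparison and for Gad1, Gad2, Slc32a1, Sst, Pvalb, Vip, Cck, Gabra2, Gabra4, Gabra5, Gabrd, Gabbr1 and Cnr1, whatever their test. From the other lists up to 4 genes past the threshold are named. One result from these lists is not reported here.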

Additional observations from a re-analysis of the deposited data

Results flagged for a closer look

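Of 87 sets of values (29 members in 3 groups) examined for a single library far from the rest, 2 were picked out, and chance picks out about 1 in 20. Gabrd was at 581 normalized counts in saline mouse 7152, where the other 4 saline libraries lay at 338 to 397; this mouse was among the 5 libraries that stood apart. Dlx1 was at 108 in young plasma mouse 7156, where the other 5 lay at 45.4 to 66.8, and Dlx2, its neighbour on chromosome 2, was also highest in that mouse, at 83.8.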

How the results depend on the processing

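Each comparison was repeated with a pseudocount of 0.5 or 5, without the filter or with one at 50, with TMM or library-total scaling, with edgeR or DESeq2, with all 3 groups in 1 fit, without each library in turn and without the 5 libraries that stood apart. The number of members past P 0.05 after young plasma was 1, and it was 2 with all 3 groups in 1 fit, 0 without the 5 libraries and 0 to 2 without single libraries. The counts over all genes moved as well. Past the threshold, 251 of 13594 genes were higher and 205 lower in the main fit. With all 3 groups in 1 fit these were 294 and 232 of 13896, and without the 5 libraries 174 and 137 of 13594. Without saline mouse 7143, where 2 members passed, they were 322 and 299. After the young platelet fraction the number of members was 0, then 1 without the 5 libraries and 0 to 3 without single libraries. Over all 13603 genes, 328 were higher and 199 lower past the threshold in the main fit. Without the 5 libraries these were 246 and 170. Without young platelet mouse 7145, where 3 members passed, they were 530 and 346. Between the treatments the number of members was 0, and 0 to 1 without single libraries. Over all 13693 genes, 114 were higher and 146 lower past the threshold in the main fit. These were 155 and 112 without young plasma mouse 7144, and 200 and 238 without young plasma mouse 7159, where 1 member passed each time. The median difference of the members ran from -0.07 to 0.01 for young plasma without single libraries, from -0.11 to -0.04 for the young platelet fraction and from -0.10 to 0.01 for the contrast of the treatments. These moves were less than the spread between replicates (0.10 on the log2 scale) throughout. That spread is larger than each median with all libraries (-0.03, -0.08 and -0.05), so this does not show that the medians are stable. The young plasma and contrast medians changed sign. Of 1783 repeats over single members, 1762 kept their side of the threshold, 7 lost it (all Gabra4 after young plasma) and 14 gained it. No called difference changed sign, while 125 uncalled ones did. The causes were not tested. None of the 8 pairs passed after adjustment over the pairs in all 17 libraries, without the 2 farthest or without the 5.

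No paired analysis was possible because the hippocampal labels carry mouse numbers that no groups share, and the microglia values, whose labels share replicate numbers, come from no test.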
